A study of Mus musculus with 6 samples.

Results

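The autophagy and mitophagy machinery is described here through 33 genes, chosen by symbol from the 54532 rows of a gene count table of 32D cells. All 33 symbols matched exactly 1 row. Of the 33 genes, 32 had enough reads to be tested, and Map1lc3a did not. Autophagy encloses cytoplasm in a double membrane, the autophagosome, and delivers it to the lysosome. A kinase complex around ULK1 starts the process, a class III phosphatidylinositol 3-kinase marks the membrane, ATG9 and ATG2 supply lipid, and conjugation enzymes attach small ubiquitin-like proteins of the ATG8 family to it. Mitophagy is the removal of mitochondria by the same route, through PINK1 or through receptors in the outer mitochondrial membrane such as BNIP3, BNIP3L and FUNDC1. In blood-forming cells, autophagy is known for clearing mitochondria during red cell maturation and for the upkeep of stem cells.

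The S34F group was 32D cells that received a GFP-marked MSCV retrovirus with human U2AF1 carrying the S34F substitution, and the WT group was 32D cells with human wild type U2AF1 in the same vector. There were 3 mRNA libraries in each group. U2AF1 is a splicing factor that binds the end of introns, and S34F is a substitution found in myeloid malignancies. 32D is a mouse myeloblast-like line, and both groups grew in serum-containing medium with interleukin-3. Both groups carry an added human gene under a viral promoter. The labels name neither separate cultures nor a selection of transduced cells, so the p-values rest on how far these 6 libraries spread, part of which may be technical. Counts per gene show the amount of transcript, and neither splice forms nor autophagic activity, which depends largely on lipid attachment and phosphorylation.

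Library totals lay between 16716979 and 19129250 counts in S34F and between 16509899 and 18119760 in WT. A count of 0 allows up to 3 counts, or 0.156 to 0.182 CPM (read counts on the TMM scale of library size), for counting error only. Of 11 markers of myeloblast-like cells, 8 were expressed well enough to test. Csf2rb lay at 570 to 831 CPM and Ptprc at 323 to 562 CPM, while Mpo lay at only 2.99 to 15.8 CPM. Kit and Elane had at most 3 and 6 counts. Cebpa is listed at 0 counts in all 6 libraries, and the table does not show whether that is a low level or a gap in the counting. Spi1 rose in S34F (log2 fold change 0.60, adjusted p = 0.0491), close to the threshold, and no other of the 8 passed. Myb and Prtn3 had negative log2 fold changes, of -0.39 and -0.40. The rest had positive ones, up to 0.58 for Ctsg. All markers of T cells and of B cells lay under 1 CPM in each library, and 3 of 5 in each list had 0 counts throughout. Markers of mast cells and basophils summed to 428 to 530 CPM in S34F and to 394 to 469 CPM in WT, mostly Gata2. Neutrophil markers summed to at most 17.8 CPM in a library, fibroblast markers to 20.7 CPM and erythroid markers to 2.03 CPM. No gene of these lists passed. The 6 macrophage markers summed to 262 to 362 CPM in S34F and to 236 to 244 CPM in WT, Marco and Mrc1 lay under 1 CPM throughout, and 0 of the 4 that could be tested passed. Among them Cd68 was at 32.4, 32.2 and 32.0 CPM in S34F, against 19.9, 7.54 and 7.46 CPM in WT. All 4 had positive log2 fold changes, of 2.08 for Cd14, 1.47 for Cd68, 1.45 for Csf1r and 0.18 for Adgre1. Cd14 and Csf1r spread widely among the S34F libraries, at 2.93 to 22.8 and 4.84 to 34.9 CPM. Whether these markers have a part in the differences below was not tested. Mouse U2af1 itself differed by 0.17 ± 0.25 on the log2 scale (SE, adjusted p = 0.721), which does not check the labels, since the constructs are human. WT replicates 2 and 3 differed from each other by a biological coefficient of variation of 3.21%, while other pairs of the same group differed by 16.5% to 21.5% and S34F differed from WT libraries by 21.6% to 29.5%, and their chi-square per degree of freedom of 2.30 was still above sampling noise. Results are therefore also given with these 2 libraries summed into 1.

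None of the 32 tested genes differed between S34F and WT at an adjusted p under 0.05 (edgeR quasi-likelihood test, Benjamini-Hochberg over all 13444 genes tested). Over all genes 2.18% passed, 1.58% higher and 0.595% lower in S34F, so a count of 0 among 32 genes is near the background. At an unadjusted p under 0.05 there were 7 of the 32 genes, 1 higher and 6 lower in S34F, which is 21.9% of them against 22% of all genes. The log2 fold changes ran between -0.60 for Ulk1 and 0.57 for Bnip3, with a median of -0.06 over the 32 genes and of 0.00 over all genes. Of the 32, 13 were positive and 19 negative. No member had a difference of more than 2-fold, as 4.68% of all genes had. The 95% interval of the fold change lay within 2-fold in either direction for 31 of the 32 genes, all but Bnip3, and within 1.5-fold for 17 of them. Over all genes these shares were 70.0% and 38.9%, at a median level of 28.3 CPM against 48.3 CPM for the tested members.

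Other tools and settings gave between 0 and 5 calls among the 32 genes. DESeq2 called Gabarap higher and Ulk1, Atg2a and Pik3c3 lower in S34F (adjusted p = 0.00313, 0.00976, 0.0130 and 0.0278), where its call rate over all genes was 10%. Without WT replicate 1, which leaves the close pair as the WT group, edgeR called Gabarap higher and Ulk1, Atg2a and Rb1cc1 lower (adjusted p = 0.0419, 0.0343, 0.0375 and 0.0296), at a rate of 8.51% over all genes. With WT replicates 2 and 3 summed it called none of them and 0.145% of all genes, and the smallest adjusted p among the members was 0.240, for Gabarap. Over all 18 alternatives the adjusted p lay between 0.00313 and 0.294 for Gabarap, 0.00976 and 0.307 for Ulk1, 0.0110 and 0.287 for Atg2a, 0.0278 and 0.387 for Pik3c3 and 0.0231 and 0.731 for Rb1cc1, with no change of sign.

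**Figure D1:**
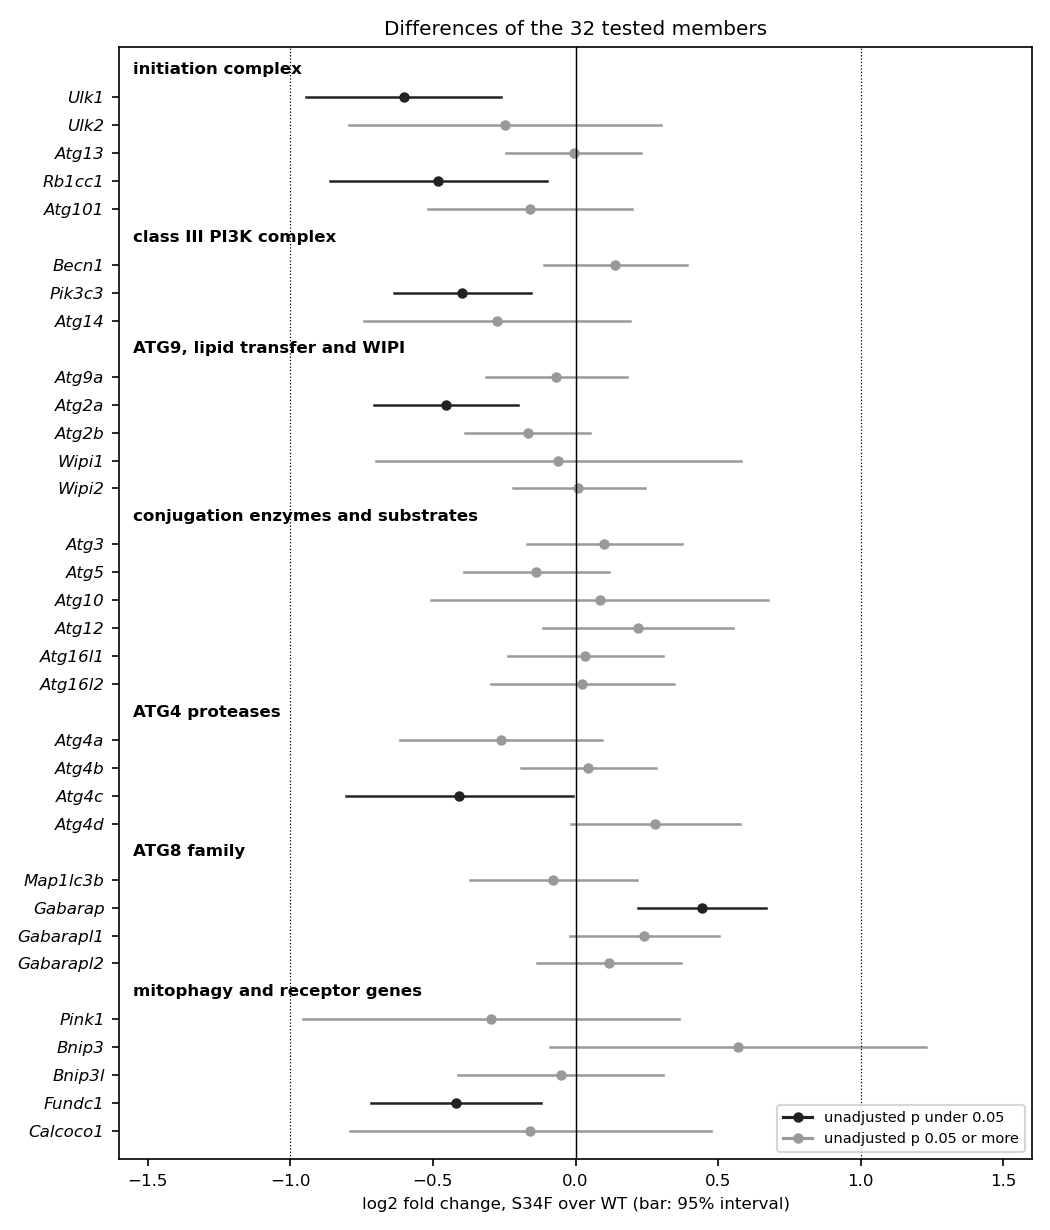
Log2 fold change of the 32 tested members, S34F over WT, with its 95% interval, ordered by role; dotted lines mark 2-fold. All points lie between -0.60 and 0.57, and the 7 dark intervals, 1 above and 6 below 0, are those with an unadjusted p under 0.05.

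Levels between genes were compared per kilobase of merged exons, as RPKM, as the mean and SD over all 6 libraries. Gabarap had the highest level of the members, at 74.2 ± 12.7 RPKM, and its lowest library, at 60.2 RPKM, lay above every library of the other genes. Bnip3l followed at 36.5 ± 5.21 RPKM, Gabarapl1 at 30.0 ± 3.43, Wipi2 at 27.7 ± 0.981, Bnip3 at 22.3 ± 9.33 and Atg5 at 21.7 ± 1.70. Each of these 5 overlapped its neighbour in the order over the libraries. The lowest of the tested genes were Wipi1 at 2.51 ± 0.639 RPKM, Atg16l2 at 3.04 ± 0.273, Atg14 at 3.60 ± 0.656, Calcoco1 at 4.28 ± 1.21 and Ulk1 at 4.56 ± 1.15 RPKM, again overlapping their neighbours. With the longest transcript in place of merged exons, Gabarap was still first, at 101.3 RPKM, and Wipi2, whose merged exons are long, was second, at 56.4 RPKM. At the low end Wipi1, Atg16l2 and Atg14 were still the lowest of the tested genes, but Calcoco1 was at 8.27 RPKM, and Ulk2 at 5.40 and Atg10 at 5.49 RPKM lay below Ulk1 at 5.67 RPKM.

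**Figure D2:**
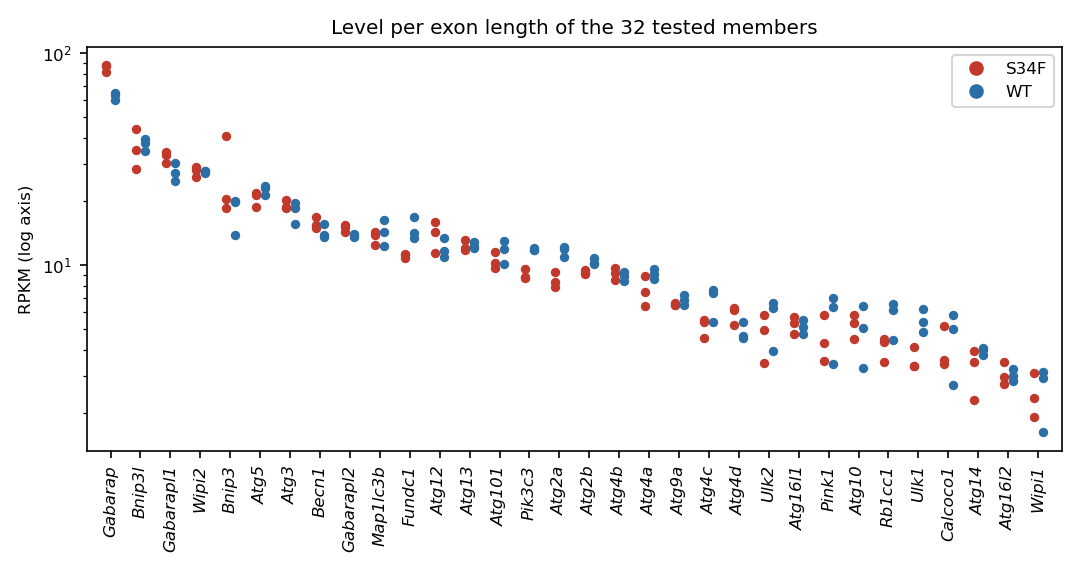
RPKM on a log axis for each tested member, ordered by its mean over 6 libraries, with 3 S34F points left of 3 WT points. Gabarap stands above the rest in each library, and its S34F points lie above its WT points.

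Promoter windows, from 250 bases before to 50 bases after a transcript start, were found for 26 of the 33 genes in RefSeq on GRCm38.p6, which has the coordinates of mm10. They were searched on both strands for CACGTG, the E-box core that TFEB and related factors of lysosome and autophagy genes bind. ACGTG, a form of the core of the hypoxia response element that lies within CACGTG, was searched in the same way. So was GTAAACA, a FOXO motif. Other forms of these motifs were not searched. CACGTG was found for 4 of the 26 genes (15.4%), namely Atg14, Atg3, Atg5 and Bnip3, and for 11.7% of the 9121 tested genes with a window. ACGTG was found for 11 of the 26 (42.3%), against 29.6% of all, and GTAAACA for 0 of the 26, against 3.08% of all. A match describes these letters and not a site in use. The windows shown are those of Atg3, Bnip3, Ulk1 and Atg2a. Atg3 has 2 E-boxes, at 94 and 71 bases before the start. Bnip3, the member that varied most between libraries, has an E-box at 108 bases before it. Ulk1 and Atg2a, GC-rich genes with low S34F values, have none of the 3 motifs. Nor have Gabarapl1, which lay higher in S34F, and Wipi2 and Atg13, which were level. Whether the motifs go with the differences was not tested. Capitals mark CACGTG.
Atg3 (chr16:45158579-45158878, plus strand): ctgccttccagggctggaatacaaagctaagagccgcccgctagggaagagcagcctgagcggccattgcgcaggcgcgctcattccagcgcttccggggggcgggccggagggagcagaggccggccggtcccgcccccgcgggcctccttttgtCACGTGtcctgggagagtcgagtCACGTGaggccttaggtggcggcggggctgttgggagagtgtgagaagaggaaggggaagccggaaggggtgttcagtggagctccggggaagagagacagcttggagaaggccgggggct
Bnip3 (chr7:138909457-138909756, minus strand): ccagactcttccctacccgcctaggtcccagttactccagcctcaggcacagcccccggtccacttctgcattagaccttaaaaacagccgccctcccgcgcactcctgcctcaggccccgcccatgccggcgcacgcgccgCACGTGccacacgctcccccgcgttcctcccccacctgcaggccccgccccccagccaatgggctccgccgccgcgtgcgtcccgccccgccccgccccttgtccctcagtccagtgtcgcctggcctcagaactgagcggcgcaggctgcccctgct
Ulk1 (chr5:110810032-110810331, minus strand): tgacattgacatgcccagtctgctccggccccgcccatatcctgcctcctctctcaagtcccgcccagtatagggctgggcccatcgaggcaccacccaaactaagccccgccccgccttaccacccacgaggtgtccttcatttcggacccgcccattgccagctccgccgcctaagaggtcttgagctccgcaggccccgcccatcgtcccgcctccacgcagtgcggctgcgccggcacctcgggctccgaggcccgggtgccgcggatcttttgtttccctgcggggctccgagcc
Atg2a (chr19:6241418-6241717, plus strand): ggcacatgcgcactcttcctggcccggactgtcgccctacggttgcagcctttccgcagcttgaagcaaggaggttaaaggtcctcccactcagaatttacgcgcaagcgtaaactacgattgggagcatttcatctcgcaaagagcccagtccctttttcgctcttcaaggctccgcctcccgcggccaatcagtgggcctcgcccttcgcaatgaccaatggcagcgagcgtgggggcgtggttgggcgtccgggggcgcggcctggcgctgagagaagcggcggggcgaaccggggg

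The genes of the initiation complex had log2 fold changes from -0.60 for Ulk1 to -0.007 ± 0.105 for Atg13 (SE), and none of the 5 passed the test. Ulk1 (ENSMUSG00000029512, mm10 chromosome 5, 110784488 to 110810097, protein coding), the kinase that starts autophagosome formation, had 21.8, 26.8 and 21.7 CPM in the S34F libraries and 31.4, 35.2 and 40.4 CPM in the WT libraries, each in the order of replicates 1, 2 and 3, as throughout. The groups did not overlap, and the gap between S34F replicate 2 and WT replicate 1 was the narrowest. The log2 fold change was -0.60 ± 0.15 (SE, n = 3 per group, adjusted p = 0.0756), with a 95% interval of 0.520 to 0.834 for the fold change.

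Rb1cc1, which encodes the scaffold FIP200 of the complex, was counted at 51.5, 65.7 and 64.0 CPM in S34F and at 65.6, 90.6 and 96.8 CPM in WT. Here WT replicate 1 lay within the S34F libraries and WT replicates 2 and 3 above them, and the log2 fold change was -0.48 ± 0.17 (adjusted p = 0.148). Ulk2, the paralogue of Ulk1, showed the same arrangement at 20.8, 29.5 and 34.8 CPM in S34F and 23.6, 37.6 and 39.8 CPM in WT (log2 fold change -0.25 ± 0.24, adjusted p = 0.583). Atg13, the regulatory subunit, was almost level, at 54.0 ± 2.96 CPM in S34F and 54.2 ± 1.82 CPM in WT (SD, n = 3 each), and its 95% interval for the fold change of 0.844 to 1.17 was among the narrow ones. Atg101, which binds ATG13, averaged 16.7 ± 1.53 CPM in S34F and 18.7 ± 2.31 CPM in WT (adjusted p = 0.588).

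The class III phosphatidylinositol 3-kinase complex makes the lipid PI3P on the forming membrane. Among its members here, the groups did not overlap for Pik3c3 and overlapped for Becn1 and Atg14. Its VPS15 subunit, Pik3r4, is not a member and is given below, where its groups did not overlap either. Pik3c3 (chromosome 18, 30272747 to 30348126, protein coding), the catalytic subunit VPS34, was counted at 42.8, 39.5 and 38.7 CPM in S34F and at 53.8, 52.7 and 52.7 CPM in WT. The S34F libraries were all lower, and WT replicate 1 lay with the other WT libraries here. The log2 fold change was -0.40 ± 0.11 (adjusted p = 0.0873). Becn1, the scaffold beclin 1, averaged 111.8 ± 7.25 CPM in S34F and 101.5 ± 8.27 CPM in WT (log2 fold change 0.14 ± 0.11, adjusted p = 0.490). Cntd1 on the opposite strand covers 43.9% of its exon bases, at a mean of 1.78 CPM. Atg14, the subunit that directs the complex to autophagosome formation, was counted at 10.0, 15.2 and 17.0 CPM in S34F and at 16.3, 17.3 and 17.6 CPM in WT, so that S34F replicate 1 was the low library (adjusted p = 0.463).

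Among the genes of lipid supply, the 2 ATG2 genes lay lower in all S34F libraries, and neither passed the test. Atg2a (chromosome 19, 6241668 to 6262335, protein coding), a bridge protein that carries lipids from the endoplasmic reticulum, was counted at 64.3, 60.7 and 71.8 CPM in S34F and at 84.1, 93.7 and 91.8 CPM in WT. The groups did not overlap, and the log2 fold change was -0.45 ± 0.11 (adjusted p = 0.0730). Atg2b, its paralogue, was counted at 123, 123 and 127 CPM in S34F and at 136, 146 and 138 CPM in WT, a smaller gap that also did not overlap (log2 fold change -0.17 ± 0.10, adjusted p = 0.343). A stretch of 177 bases in a short Atg2a transcript matches Fkbp5 on chromosome 17 at 97% identity or more, so some reads of that stretch may be shared.

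The values of some members moved with a correction for the GC content of transcripts, which was 59.2% for Atg2a and 58.1% for Ulk1. After each library's trend with GC content was taken out, 1.23% of all genes passed, and Atg2a, at -0.64 on the log2 scale, was the only member among them (adjusted p = 0.0491). Ulk1 was at -0.77 (adjusted p = 0.0613). Rb1cc1, with a GC content of 38.8%, moved towards 0, to -0.22 (adjusted p = 0.395), and so did Fundc1, with 41.6%, to -0.24 (adjusted p = 0.319).

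The other 3 genes of this step showed no such gap. Atg9a, the membrane protein of the vesicles that seed autophagosomes, averaged 37.8 ± 0.520 CPM in S34F and 39.6 ± 2.06 CPM in WT (log2 fold change -0.07 ± 0.11). Gm29253, on the same strand, covers 31.8% of the exon bases of Atg9a and is listed at 0 counts. Reads of that stretch may therefore be missing from the Atg9a count. Wipi2, which reads PI3P and recruits ATG16L1, was the member with the most counts, at 292.6 ± 16.1 CPM in S34F and 290.6 ± 2.49 CPM in WT (log2 fold change 0.01 ± 0.10, adjusted p = 0.965). Its 95% interval for the fold change was 0.858 to 1.18. Wipi1, the related PI3P reader, was counted at 10.4, 13.6 and 8.48 CPM in S34F and at 7.18, 13.8 and 12.9 CPM in WT, with WT replicate 1 the lowest of all 6 (adjusted p = 0.924).

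**Figure D3:**
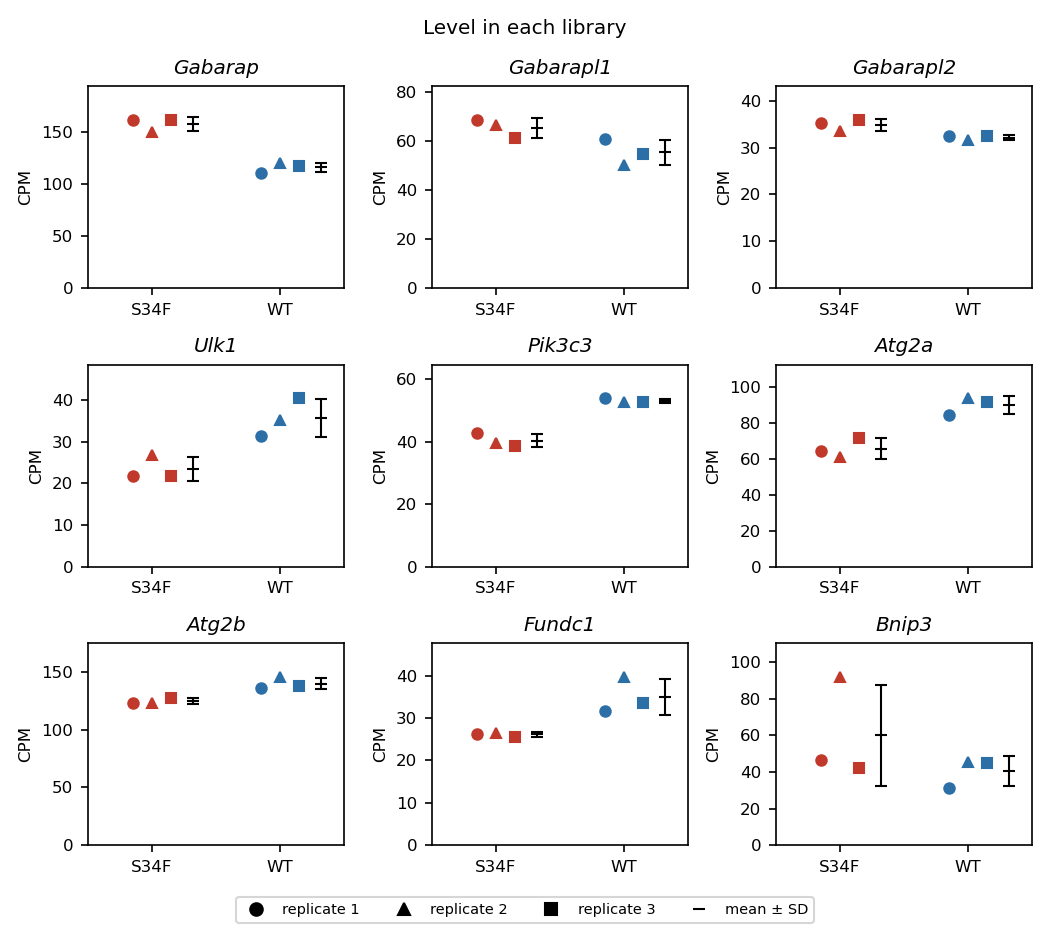
CPM in each library, S34F left and WT right, with the mean and SD, for the 8 members whose groups did not overlap and for Bnip3. Gabarap, Gabarapl1 and Gabarapl2 are higher in each S34F library, Ulk1, Pik3c3, Atg2a, Atg2b and Fundc1 lower, and Bnip3 is high in S34F replicate 2 alone.

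The conjugation machinery had the narrowest range of log2 fold changes of the 7 roles, between -0.14 and 0.22, and 0 of its 6 genes had an unadjusted p under 0.05. Atg5, which joins ATG12 to form the part of the ligase that acts with ATG16L1, was counted at 50.3, 51.6 and 44.2 CPM in S34F and at 50.7, 55.4 and 54.7 CPM in WT (adjusted p = 0.507). Atg12, its ubiquitin-like partner, was counted at 87.8, 124 and 111 CPM in S34F and at 103, 89.7 and 84.5 CPM in WT, so that S34F replicate 1 lay among the WT libraries (adjusted p = 0.417). Atg16l1, the ligase subunit that sets the place of conjugation, averaged 50.5 ± 4.71 CPM in S34F and 49.3 ± 3.63 CPM in WT.

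Atg3, the E2-like enzyme that transfers ATG8 proteins to lipid and whose promoter window holds both E-boxes, was counted at 59.6, 58.5 and 64.3 CPM in S34F and at 49.6, 58.4 and 62.2 CPM in WT. The groups overlapped, with a log2 fold change of 0.10 ± 0.12 (adjusted p = 0.664). Atg10, the E2-like enzyme for ATG12, averaged 8.95 ± 1.14 CPM in S34F and 8.44 ± 2.69 CPM in WT. Atg16l2, a paralogue of Atg16l1, averaged 26.0 ± 3.22 CPM in S34F and 25.5 ± 1.68 CPM in WT. The groups overlapped for all 6 genes.

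The ATG4 proteases trim newly made ATG8 proteins and release them from lipid, and 0 of the 4 passed. Atg4c was counted at 15.2, 18.5 and 18.1 CPM in S34F and at 18.1, 25.6 and 24.9 CPM in WT, with WT replicate 1 again among the S34F libraries (log2 fold change -0.41 ± 0.17, unadjusted p = 0.0457, adjusted p = 0.219). Atg4d was counted at 44.7, 45.7 and 37.9 CPM in S34F and at 39.2, 33.58 and 32.98 CPM in WT (log2 fold change 0.28 ± 0.13, adjusted p = 0.252). Of the exon bases of Atg4d, 19.3% overlap Kri1 on the opposite strand, which has as many reads (46.0 CPM against 39.0, means of 6 libraries) and lay 0.51 higher on the log2 scale in S34F (adjusted p = 0.114). Reads of the pair can be told apart only if strand was used in counting, which is not given in the sources used here. Atg4b averaged 75.8 ± 4.89 CPM in S34F and 73.5 ± 3.29 CPM in WT, and Atg4a 20.2 ± 3.32 CPM in S34F and 24.2 ± 1.26 CPM in WT (adjusted p = 0.837 and 0.361). Atg4a-ps on chromosome 3 matches 96% of an Atg4a transcript at 97% identity or more, so reads of the pair may be split. It had 10 counts over all libraries, against 2342 for Atg4a. Per exon length, Atg4b made up 33.3%, 32.0% and 33.8% of the summed level of the 4 proteases in S34F and 31.2%, 29.5% and 29.1% in WT.

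The ATG8 family, the small proteins that are attached to the membrane and bind cargo receptors, held the member with the smallest p. Gabarap (ENSMUSG00000018567, chromosome 11, 69991143 to 69994951, protein coding) was counted at 161, 150 and 162 CPM in S34F and at 111, 120 and 117 CPM in WT. The lowest S34F library lay well above the highest WT library. The fold change was 1.36 with a 95% interval of 1.16 to 1.59 (log2 fold change 0.44 ± 0.10, adjusted p = 0.0599), and the gene ranked 360 by p among all genes tested.

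Gabarapl1 was counted at 68.8, 66.4 and 61.1 CPM in S34F and at 60.9, 50.4 and 54.8 CPM in WT. Its S34F libraries were all higher, but S34F replicate 3 and WT replicate 1 nearly met, and the log2 fold change was 0.24 ± 0.11 (adjusted p = 0.263). Gabarapl2 was counted at 35.2, 33.4 and 36.0 CPM in S34F and at 32.4, 31.5 and 32.5 CPM in WT, without overlap and with a fold change of 1.08 (95% interval 0.911 to 1.29, adjusted p = 0.573). In the LC3 branch of the family, Map1lc3b was counted at 94.0, 107.5 and 104 CPM in S34F and at 92.2, 107.5 and 122 CPM in WT. Its groups overlapped, with a log2 fold change of -0.08 ± 0.13 (adjusted p = 0.766). Map1lc3a had 0, 0 and 0 counts in S34F and 1, 3 and 0 counts in WT, at or under the limit that a count of 0 allows, so no difference was detectable at this depth.

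Per exon length, Gabarap made up 58.6%, 56.9% and 59.5% of the summed level of the 5 ATG8 genes in S34F, and 51.6%, 55.0% and 52.5% in WT. Map1lc3b made up 8.38%, 9.99% and 9.38% in S34F and 10.5%, 12.1% and 13.5% in WT. The groups did not overlap for either gene. Nor did they for Gabarapl2, at 10.15%, 10.04% and 10.49% in S34F and 11.93%, 11.49% and 11.55% in WT. Its share was thus lower in S34F although its CPM was higher there, since a rise of any gene lowers the shares of the others. The groups overlapped for the share of Gabarapl1. These shares do not depend on the scaling of libraries, but their size depends on the exon lengths used. They were not tested. A processed copy of Map1lc3b, Gm6055, had 3.42 to 7.59 CPM in the 6 libraries, and adding it left the groups overlapping.

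**Figure D4:**
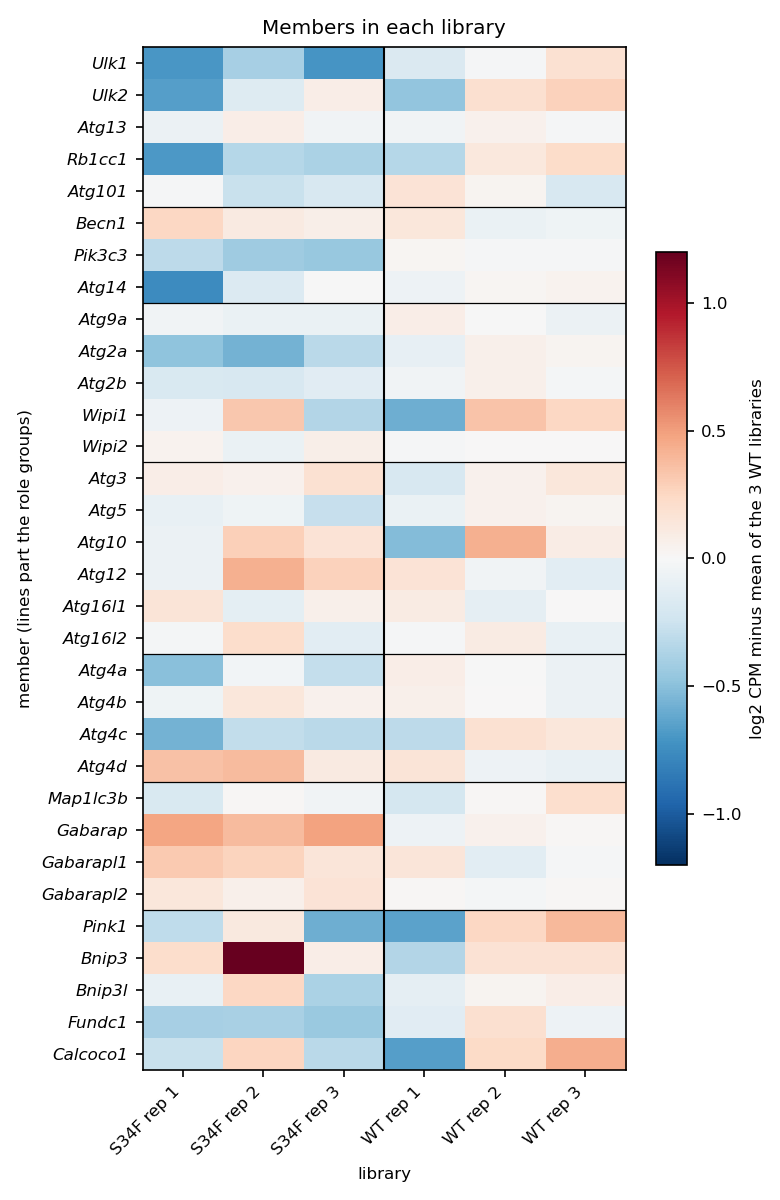
Log2 CPM of each tested member in each library, minus the mean of the 3 WT libraries, with S34F columns left of WT columns. Gabarap is above and Ulk1, Pik3c3 and Atg2a are below the WT mean in all 3 S34F columns, while Wipi1, Pink1, Atg10 and Calcoco1 are lowest in WT replicate 1.

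Among the mitophagy genes, Fundc1 had the smallest p and Bnip3 the largest log2 fold change, and neither passed. Fundc1 (chromosome X, 17556564 to 17572325, protein coding), a receptor of the outer mitochondrial membrane, was counted at 26.4, 26.6 and 25.6 CPM in S34F and at 31.8, 39.7 and 33.5 CPM in WT. The S34F libraries were close together and below all WT libraries (log2 fold change -0.42 ± 0.13, adjusted p = 0.119). Bnip3l, the receptor NIX that clears mitochondria from maturing red cells, was counted at 135, 170.0 and 110.2 CPM in S34F and at 133, 146 and 151 CPM in WT. Its log2 fold change was -0.05 ± 0.16 (adjusted p = 0.878), and the WT libraries all lay within the range of the S34F libraries. They still did with Bnip3l-ps added, a copy at 7.13 to 9.72 CPM that matches 34.7% of a Bnip3l transcript.

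Bnip3 (chromosome 7, 138890836 to 138909519, protein coding), a hypoxia-induced receptor of the same kind, was counted at 46.5, 92.0 and 42.2 CPM in S34F and at 31.4, 45.3 and 45.1 CPM in WT. S34F replicate 2 stood far above the other 5 libraries, and it was also the highest library for Bnip3l. The highest library of Bnip3 was 2.93 times the lowest, the widest spread of the 32 tested members. The log2 fold change was 0.57 ± 0.29 (adjusted p = 0.291), and 0.13 without S34F replicate 2 (adjusted p = 0.700). A noncoding gene on chromosome 14, AC160336.1, matches 94.2% of a Bnip3 transcript at 97% identity or more, so reads of the pair may be split. It had 3.22, 5.72 and 5.61 CPM in S34F and 7.42, 7.599 and 9.136 CPM in WT, and the sum of both was 49.7, 97.8 and 47.8 CPM in S34F and 38.8, 52.9 and 54.3 CPM in WT.

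Pink1, the kinase that accumulates on damaged mitochondria, was counted at 11.5, 15.5 and 9.50 CPM in S34F and at 9.12, 17.0 and 18.7 CPM in WT. Here WT replicate 1 was the lowest library of all, and the log2 fold change was -0.30 ± 0.29 (adjusted p = 0.586). Calcoco1, a receptor for selective autophagy of the endoplasmic reticulum and the Golgi apparatus, was arranged in the same way, at 20.4, 29.5 and 19.6 CPM in S34F and at 15.6, 28.8 and 33.3 CPM in WT (adjusted p = 0.779). For both genes the differences among WT libraries were larger than the difference between the groups.

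The 3 S34F libraries lay on one side of the 3 WT libraries for 8 of the 32 tested genes (25.0%), against 27.1% of all genes. They were higher for Gabarap, Gabarapl1 and Gabarapl2 and lower for Ulk1, Pik3c3, Atg2a, Atg2b and Fundc1. For 27 of the 32 genes, WT replicate 1 was farther from the mean of WT replicates 2 and 3 than these were from each other, as for 76.5% of all genes. For 7 genes (21.9%, against 18.2% of all) WT replicate 1 lay within the range of the S34F libraries while both other WT libraries lay outside it. These were Ulk2, Rb1cc1, Becn1, Atg14, Atg5, Atg4c and Atg4d.

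The rest of the pathway was followed through 71 more genes in 5 lists, of which 66 could be tested, and 2 rose and 1 fell in S34F. The 3 genes stand against the 2.18% called over all genes. The median log2 fold change was 0.03, 18 of the 66 had an unadjusted p under 0.05 (27.3%, against 22% of all genes), and for 25 of them the groups did not overlap (37.9%, against 27.1% of all genes). Among 15 tested receptors of selective autophagy, Sqstm1, which encodes p62, rose and no other passed. It was counted at 1349, 1636 and 1454 CPM in S34F and at 489, 546 and 592 CPM in WT (log2 fold change 1.45 ± 0.13, adjusted p = 0.00344). Of the 66 genes it had both the largest log2 fold change and the smallest adjusted p. It had been picked out in earlier results of these data.

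Among 14 genes of fusion with the lysosome, Tecpr1, a tethering protein that binds ATG5 and PI3P, rose 2.11-fold (95% interval 1.56 to 2.87, adjusted p = 0.0342). It was counted at 101, 126 and 158 CPM in S34F and at 47.7, 64.6 and 69.4 CPM in WT. Among 11 partners of the PI3-kinase complex and of membrane supply, Pik3r4, the VPS15 subunit that holds PIK3C3, fell to 34.6, 38.1 and 41.0 CPM in S34F, against 56.6, 55.8 and 54.4 CPM in WT (log2 fold change -0.55 ± 0.11, adjusted p = 0.0488). Pik3c3, its binding partner, had -0.40 as given above and did not pass. When WT replicates 2 and 3 were summed, Tecpr1 and Pik3r4 no longer passed while Sqstm1 did (log2 fold change 1.15 and -0.56 for the pair, adjusted p = 0.110 and 0.215). With the GC trend removed, Tecpr1 did not pass (log2 fold change 0.93, adjusted p = 0.0749) and Pik3r4 did (adjusted p = 0.0407). With library totals alone, Pik3r4 did not pass (adjusted p = 0.0519) and Tecpr1 did (adjusted p = 0.0477). Leaving out any 1 library other than WT replicate 1 also ended both calls, and over all alternatives the adjusted p lay between 2.49e-05 and 0.207 for Tecpr1, between 0.00153 and 0.218 for Pik3r4 and between 1.37e-23 and 0.0427 for Sqstm1.

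Of 10 tested genes of the ubiquitin part of mitophagy and 16 regulators by nutrients and transcription, none passed. Their members with the smallest p were Usp15, a deubiquitinase, and Mlst8, a subunit of the mTOR complexes, at -0.26 ± 0.10 and 0.44 ± 0.14 on the log2 scale (adjusted p = 0.174 and 0.114). At an unadjusted p under 0.05 there were 1 and 3 genes in these lists, or 10.0% and 18.8%, both under the 22% of all genes. In the lists of fusion, receptors and PI3-kinase partners there were 6, 5 and 3, or 42.9%, 33.3% and 27.3%, all above that share. These shares rest on few genes and were not tested. Of the genes that could not be tested, Optn, Prkaa2, Prkab1 and Foxo1 are listed at 0 counts in all libraries, and as for Cebpa the table does not show whether these are low levels or a gap in the counting.

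**Figure D5:**
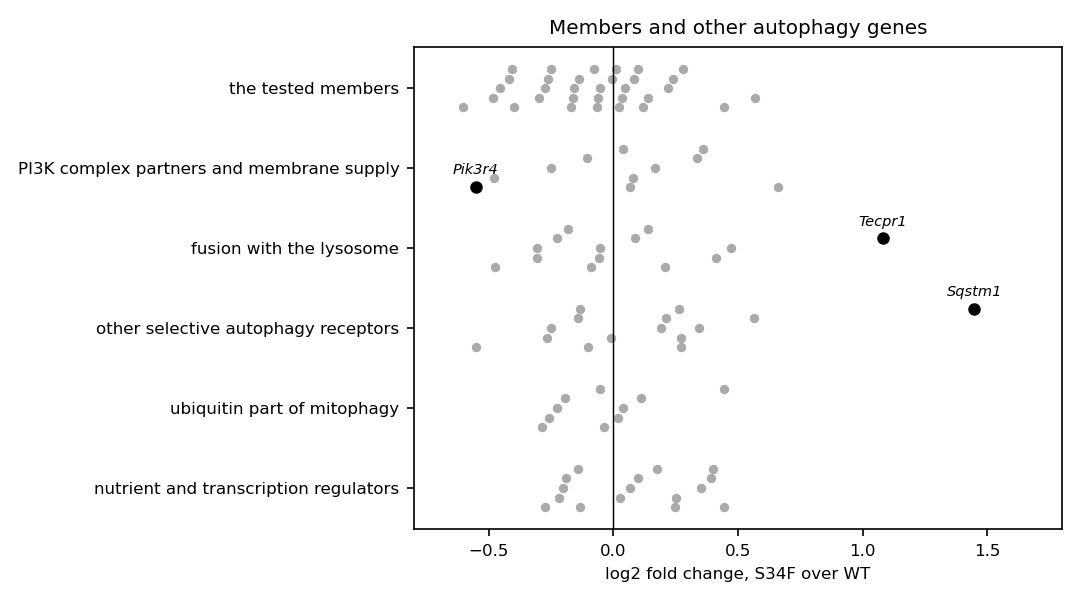
Log2 fold change, S34F over WT, of each tested gene in the members and in the 5 lists of other autophagy genes; the height within a row is only for legibility. Black points mark an adjusted p under 0.05, which Sqstm1, Tecpr1 and Pik3r4 have and no member has.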

How the data were processed

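Libraries of mRNA were made with a directional kit, per the labels' protocols. The values the authors deposited are whole read counts for each Ensembl gene ID. The submitters' processing notes name HISAT2, featureCounts and mm10, and the sources used here state no version, strand setting, annotation or treatment of multiply matching reads. Columns were matched to samples by name, and groups came from the titles.

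Differences were tested with edgeR 4.0.16 (R 4.3.3): TMM scaling, its default count filter and a robust two-sided quasi-likelihood F test on genotype alone, with 4 residual degrees of freedom and a Benjamini-Hochberg threshold of 0.05. Standard errors are the log2 fold change over the root of F. CPM and RPKM are TMM-scaled. Coordinates, exon length and GC content came from GENCODE M21 (mm10), which held 54409 of 54532 gene IDs. Copies were sought with blastn 2.17.0 among its transcripts, at 97% identity over at least 100 bases. On simulated counts of 13444 genes for this comparison, the test recovered 12.9% of the changes of 1.5-fold, 60.0% of those of 2-fold and 89.2% of those of 4-fold. Alternatives were run in edgeR, DESeq2 1.42.0 and limma 3.58.1, and figures were drawn with matplotlib 3.10.9.

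All 33 members are named, and from each list of other genes those that passed or the 1 with the smallest p. Members and lists were chosen with earlier results of these data known.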

Additional observations from a re-analysis of the deposited data

How the results depend on the processing

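Counts of calls moved with the setting, and none of the 32 tested members was called under RLE, upper-quartile or total scaling, with at least 1 CPM in 3 libraries, with limma-voom or with WT replicates 2 and 3 summed (with or without the GC correction). Genes higher and lower in S34F were 213 and 80 over all genes. They were 500 and 263 with no count filter, which is 3.12% of the 24480 genes then tested. With DESeq2 they were 746 and 470, and with the GC trend removed 121 and 44. They were 16 and 4 with WT replicates 2 and 3 summed, and 11 and 3 with this sum and the GC trend removed. Without single libraries they were 16 to 722 and 2 to 455. Members called higher and lower were 0 and 1 with no count filter (Ulk1), 1 and 3 with DESeq2, 0 and 1 with the GC trend removed (Atg2a), and 0 to 1 and 0 to 3 without single libraries, where only leaving out WT replicate 1 gave calls. Other autophagy genes called higher and lower were 2 and 1. They were 2 and 0 with library totals alone, 3 and 2 with no count filter, 6 and 2 with DESeq2, 1 and 1 with the GC trend removed, 1 and 0 with WT replicates 2 and 3 summed, with or without the GC trend, and 1 to 8 and 0 to 2 without single libraries. The median log2 fold change of the members stayed negative, from -0.12 to -0.01. The cause was not tested.

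The labels do not say that equal replicate numbers mark a shared batch. Deviations from the group means correlated at 0.33, 0.16 and 0.07 for replicates 1, 2 and 3. WT replicates 2 and 3, the close pair, gave nearly equal values with S34F replicate 2 (0.16 and 0.15) and with S34F replicate 3 (0.08 and 0.07). These correlations therefore cannot decide whether the numbers mark pairs. For want of a label, the main test did not use the numbers, and a fit that does is given as an alternative. With the replicate number as a block, 878 genes were higher and 540 lower, which is 10.5% of all genes tested. In this fit 1 member was higher (Gabarap) and 4 lower (Ulk1, Rb1cc1, Pik3c3 and Atg2a), and 7 other autophagy genes were higher and 3 lower. With the block and the GC trend removed these were 602 and 354 (7.11% of all genes), 1 and 2, and 3 and 3.

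Signs turned only for members with small differences, none of them called. Wipi2 was at -0.021, -0.023, -0.065, -0.066 and -0.052, and Atg16l2 at -0.007, -0.008, -0.095, -0.10 and -0.078, with upper-quartile scaling, library totals, the GC trend removed, this with the block, and this with WT replicates 2 and 3 summed. Bnip3l was at 0.073, 0.051 and 0.08 in the last 3. With WT replicates 2 and 3 summed Atg13 was at 0.002 and Wipi1 at 0.067, and with the GC trend also removed Atg4b was at -0.004. Without single libraries the log2 fold changes ran from -0.05 to 0.015 for Atg13, -0.30 to 0.10 for Wipi1, -0.018 to 0.057 for Wipi2, -0.13 to 0.32 for Atg10, -0.035 to 0.109 for Atg16l1, -0.077 to 0.097 for Atg16l2, -0.172 to 0.027 for Map1lc3b, -0.22 to 0.09 for Bnip3l and -0.416 to 0.063 for Calcoco1. On the simulated counts, which cover all 13444 genes and not the members alone, most changes of 1.5-fold went uncalled.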
